A study of Mus musculus with 2 samples.

Results

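Gata1, a GATA-family factor on which red cell formation depends, was located by chromatin immunoprecipitation and sequencing (ChIP-seq) around 10 genes that carry iron through the cell: Tfrc, Tfr2, Steap3, Slc11a2, Slc40a1, Fth1, Ftl1, Hmox1, Flvcr1 and Ireb2. The genes were chosen by role, out of 21792 protein-coding genes annotated in the mouse assembly GRCm38.p6 (mm10). A Gata1 peak was assigned to a gene when its midpoint lay in the gene body or within 50 kb of either end. Of the 4135 peaks, 10 (0.242%) met this rule. They gave 7 of the 10 genes a peak, against 32.0% of all protein-coding genes by the same rule.

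The series holds 1 Gata1 ChIP library, made with a rabbit anti-Gata1 antibody, and 1 control library titled input chromatin, whose antibody field names a rabbit IgG and whose description says that material for an IgG ChIP was lacking. Both came from mouse embryonic stem cells differentiated as embryoid bodies for 5 days and sorted as positive for the Runx1-ires-GFP and Gata1::mCherry reporters, a population described as primitive erythroid, the first red cells of the embryo. Cells of several sorts were pooled, so the library is a mean over sorts and over any other cell type that carries both reporters, and peak positions give no marker level with which to check the cell type. The peak list has positions only, each 400 bp wide, with no score, height or read count. The depth is therefore unknown, each site is called or not called, and with 1 library no value below has an error between cultures.

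Developing red cells take up most of their iron through the transferrin cycle. Transferrin loaded with ferric iron binds its receptor at the surface, the complex is taken into an acidic endosome, the iron is released and reduced, and ferrous iron is moved into the cytosol, where it goes to haem synthesis in mitochondria or is stored in ferritin. Iron and haem leave through separate exporters, and haem can be broken down to release its iron. Iron regulatory proteins bind stem-loops in the messages for ferritin, ferroportin, the transferrin receptor and a form of the endosomal transporter, and so set uptake against storage when iron is scarce.

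Within 50 kb, a Gata1 peak lay at 7 of the 10 genes (70%, 95% Wilson interval 39.7 to 89.2%, counting error only), against 32.0% of all protein-coding genes. With peaks in the gene body alone the count was 3 of 10 (30%, 10.8 to 60.3%), against 9.34% of all protein-coding genes, and within 10 kb it was 4 of 10 (40%, 16.8 to 68.7%), against 16.6%. It was 3 of 10 within 1 kb (10.8 to 60.3%), against 11.3%, which lies inside that interval. It was 5 of 10 within 25 kb (23.7 to 76.3%), against 23.4%, and 8 of 10 within 100 kb (49.0 to 94.3%), against 43.9%. The share was above that of all protein-coding genes in each of these 6 windows. At 10 and 25 kb the share of all protein-coding genes lay just below the interval (16.6% against 16.8%, and 23.4% against 23.7%). The intervals take the genes as drawn at random, which genes picked by role were not. The windows are nested, so a gene counted in one is counted again in every larger one, and they are not separate results. The genes had a median length of 19.4 kb and a median of 2.5 other protein-coding genes within 50 kb, against 17.2 kb and 3 over all protein-coding genes. The median distance to the nearest peak was 20.3 kb for the 10 genes and 135 kb for all protein-coding genes. These counts describe genes picked by role with earlier results of these data known, and no test was made of them.

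**Figure D1:**
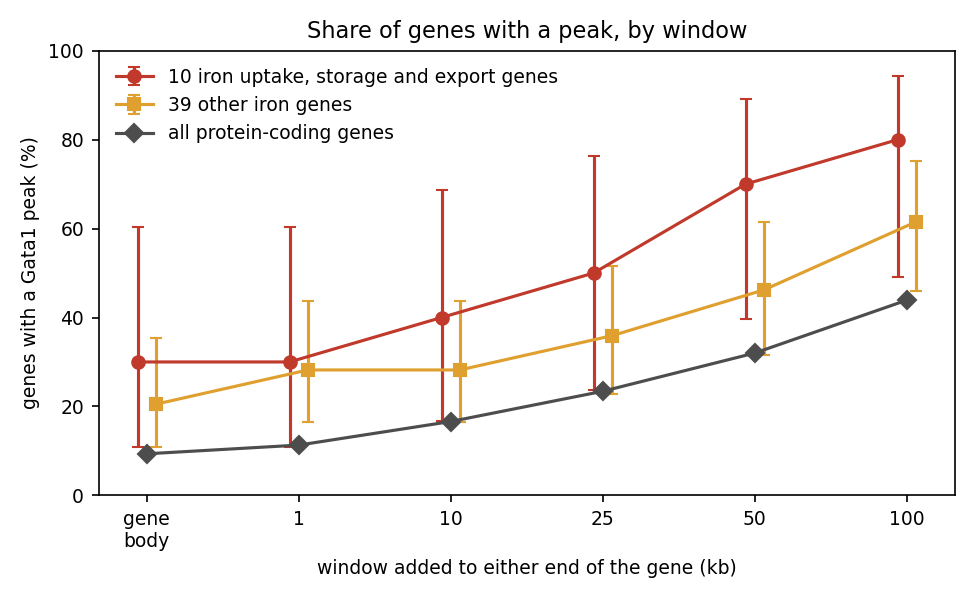
The share of genes (vertical axis, percent) with a Gata1 peak midpoint in the gene body or within 1, 10, 25, 50 or 100 kb of it (horizontal axis). Circles are the 10 iron uptake, storage and export genes, squares are 39 other iron genes and diamonds are all 21792 protein-coding genes; bars are 95% Wilson intervals, which cover counting error only, and at 50 kb the points stand at 70%, 46.2% and 32.0%.

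The 7 genes differed in where their peaks lay. Tfr2, Slc11a2 and Ireb2 carried a peak inside the gene. Fth1, Ftl1, Flvcr1 and Tfrc had theirs outside, at 2.22, 14.2, 26.4 and 33.4 kb for the nearest. No peak lay within 50 kb of Hmox1, Slc40a1 or Steap3, whose nearest peaks were 99.0, 146 and 334 kb away. The farthest peak that met the rule was at Tfrc, 37.8 kb from the gene, and the first that missed it was at Ftl1, 50.7 kb from the gene. That peak lay in Tulp2 and overlapped an annotated promoter of Nucb1.

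**Figure D2:**
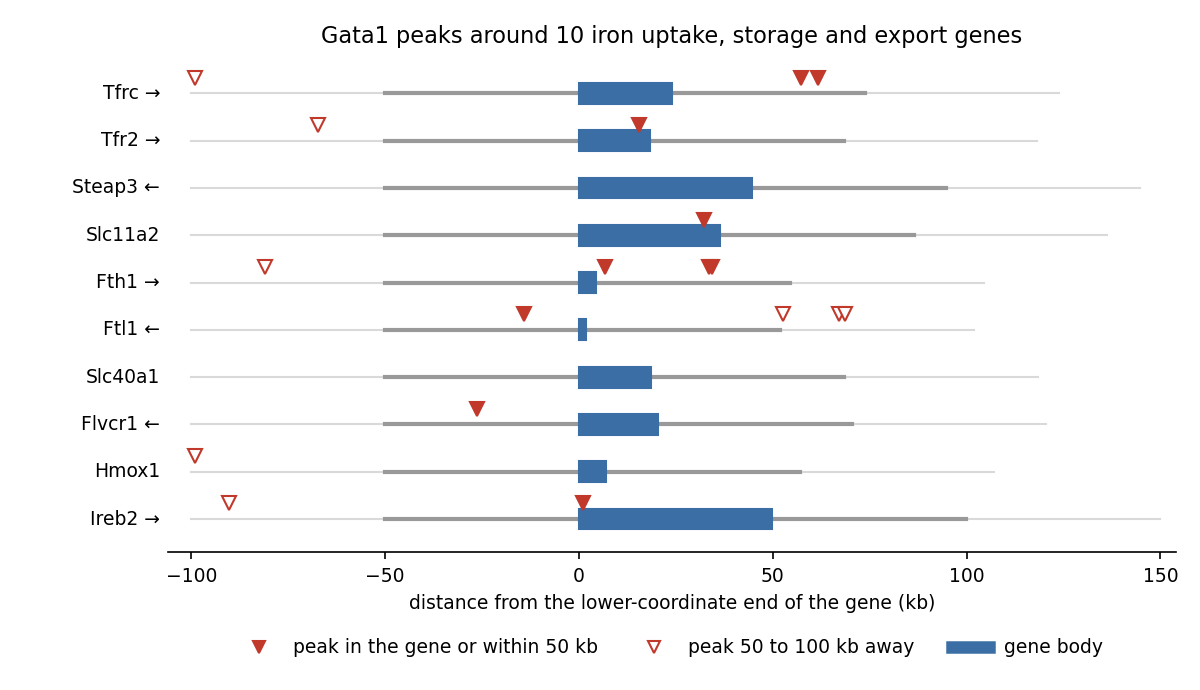
Gata1 peaks (triangles) along each of the 10 genes, drawn to scale in kb from the gene's lower-coordinate end, with the gene body as a bar, the 50 kb windows as dark lines and the 100 kb windows as pale lines. Arrows give the direction of transcription where the RefSeq promoter table holds the gene; filled triangles are the 10 peaks within 50 kb and open triangles are peaks 50 to 100 kb away, and the Steap3 and Slc40a1 rows hold none.

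Among the 4 genes of uptake, 3 had a peak within 50 kb and 2 had it inside the gene. Tfrc encodes transferrin receptor 1, the surface receptor that brings in iron-loaded transferrin, and lies on chromosome 16 at 32608896 to 32632794. It had no peak in the gene or within 25 kb. Its 2 peaks were at chr16:32665956-32666355 and chr16:32670361-32670760, which is 33.4 and 37.8 kb beyond its downstream end and 57.3 and 61.7 kb from its first annotated start. Both lay inside the next gene, Tnk2, which encodes a non-receptor tyrosine kinase. The first also lay in Tnk2os, a noncoding gene that overlaps it. The midpoints were 4.41 kb apart. Tnk2 and Tfrc were the only protein-coding genes within 50 kb of either peak. A further peak lay 99.2 kb from Tfrc on its upstream side, 2.53 kb from Zdhhc19. Of all protein-coding genes, 10.9% had at least 2 peaks within 50 kb.

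Tfr2 encodes transferrin receptor 2, which binds iron-loaded transferrin and takes part in iron sensing, and lies on chromosome 5 at 137569822 to 137588081. Its 1 peak, at chr5:137584995-137585394, was inside the gene, 2.89 kb before its downstream end. It stood 14.2 to 15.4 kb downstream of the 3 annotated starts and overlapped none of their promoter windows. The window of 50 kb around this peak touched 6 protein-coding genes. The next peak was 82.7 kb away, at the promoter of Pop7 and 67.4 kb upstream of Tfr2.

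Slc11a2 encodes the divalent metal transporter DMT1, which moves ferrous iron out of the endosome, and lies on chromosome 15 at 100387898 to 100424209. Its 1 peak, at chr15:100419889-100420288, was inside the gene, 32.2 kb from the lower-coordinate end and 4.12 kb from the higher-coordinate end. No other peak lay within 100 kb of the gene, and the next on the chromosome was 751 kb away. This was the most isolated of the 10 peaks.

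Steap3 encodes the ferrireductase that reduces iron in the endosome, the step between release from transferrin and transport by DMT1. It spans 44.7 kb of chromosome 1, at 120226414 to 120271081, and had no peak within 100 kb. The nearest was 334 kb away, and 68.8% of protein-coding genes had a peak at that distance or closer. The sequence before its outermost annotated start is shown because it holds a GATA motif although no peak was called there. Here and below, capitals mark a match on either strand to the motif that GATA factors bind. The search took AGATAA as its main form and counted TGATAA as a second form of the same core. It also took AGATAG and, as the last form searched on either strand, it counted TGATAG as well. On the other strand the main form reads TTATCT. Overlapping matches were each counted.
Steap3, chr1:120271081-120271330, minus strand: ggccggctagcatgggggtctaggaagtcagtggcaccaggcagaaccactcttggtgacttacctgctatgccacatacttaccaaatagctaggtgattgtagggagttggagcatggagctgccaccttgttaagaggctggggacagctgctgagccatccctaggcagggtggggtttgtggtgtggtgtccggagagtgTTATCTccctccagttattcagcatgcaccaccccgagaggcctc
The match begins 45 bp before the annotated start. A match is a description of the letters and does not say that the factor was or was not bound.

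Both genes of the ferritin shell, which stores iron in the cytosol, had peaks outside the gene. Fth1 encodes the heavy chain, which oxidises iron as it enters the shell, and lies on chromosome 19 at 9980600 to 9985111. It had 3 peaks within 50 kb, a number reached by 3.35% of all protein-coding genes. With a pair 0.885 kb apart counted as 1 region it had 2, a number reached by 10.9% with no peaks merged. The nearest, at chr19:9987135-9987534, was 2.22 kb beyond the downstream end of Fth1, 6.73 and 4.69 kb from its annotated starts. It lay inside Best1, which encodes a bestrophin chloride channel and whose downstream end adjoins that of Fth1.

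The other 2 Fth1 peaks, at chr19:10013941-10014340 and chr19:10014826-10015225, were 29.0 and 29.9 kb beyond the downstream end. Both lay inside Rab3il1, which encodes an exchange factor for Rab proteins. Their midpoints were 0.885 kb apart, so they may be 1 region called more than once. The second was centred 22 bp from an annotated start of Rab3il1. Its bases before that start are shown because they belong to a peak of the Fth1 window whose sequence could be read, and they hold the motif at 68 and at 14 bp before the start.
Rab3il1, chr19:10014826-10015046, plus strand: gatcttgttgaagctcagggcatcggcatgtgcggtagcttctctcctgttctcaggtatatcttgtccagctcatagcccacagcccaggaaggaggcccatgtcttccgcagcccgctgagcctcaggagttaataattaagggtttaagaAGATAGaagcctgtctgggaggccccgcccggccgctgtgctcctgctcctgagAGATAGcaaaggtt

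Ftl1 encodes the light chain of ferritin, which helps form the mineral core, and is the shortest of the 10 genes at 1.94 kb, on chromosome 7 at 45457944 to 45459886. Its 1 peak within 50 kb, at chr7:45443579-45443978, was 14.2 kb beyond its downstream end, inside Gys1, the gene of muscle glycogen synthase. The region is dense in genes, and 11 protein-coding genes lay within 50 kb of this peak. On the upstream side, 3 peaks lay just outside the window, at 50.7, 65.1 and 66.6 kb, in Tulp2, Ppp1r15a and Plekha4.

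**Figure D3:**
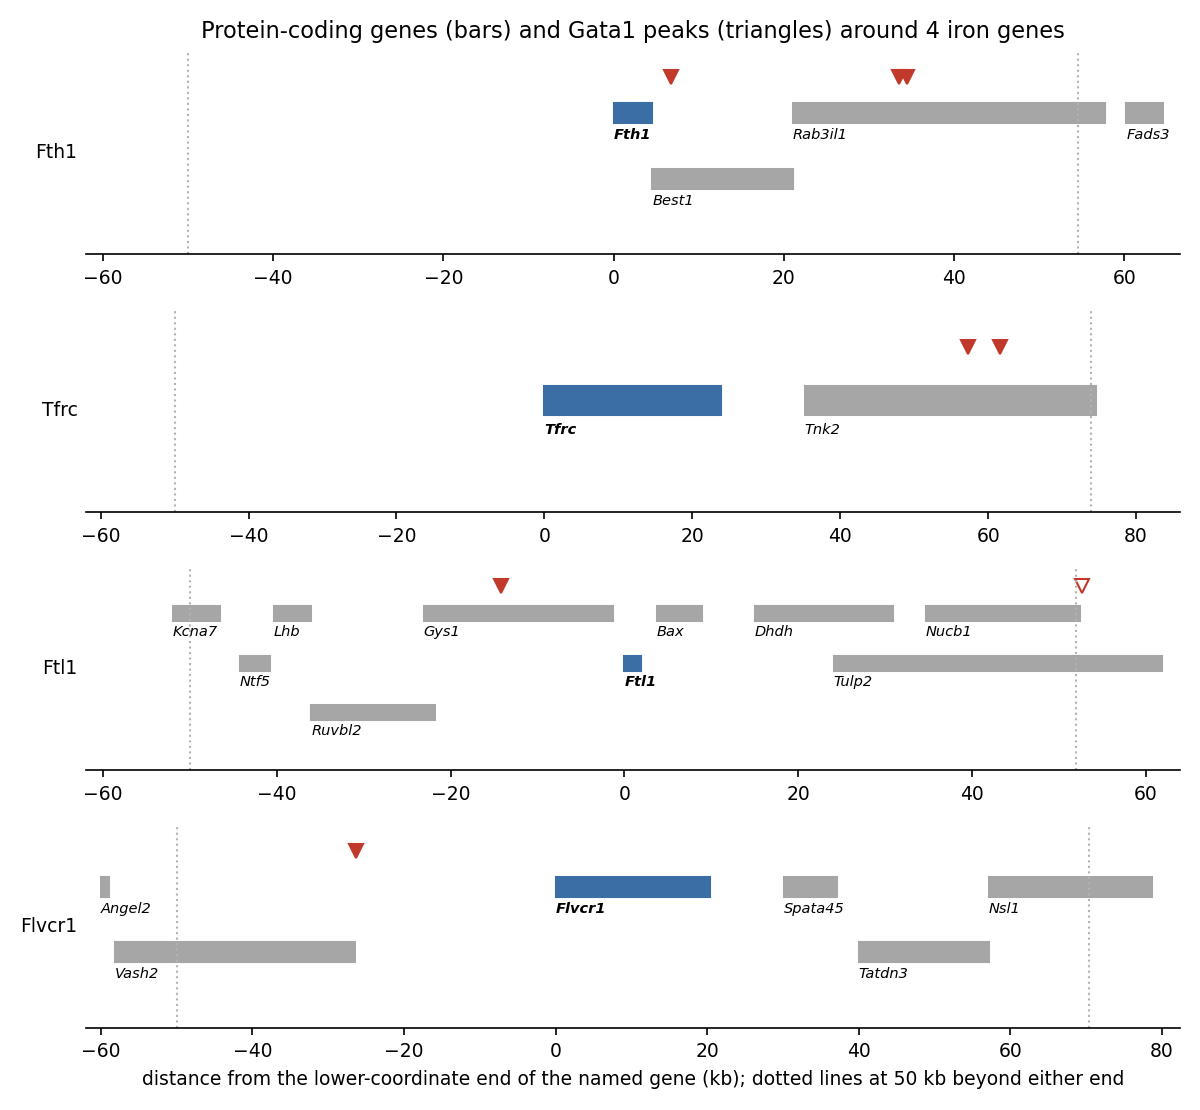
Protein-coding genes (bars, blue for the named iron gene) and Gata1 peaks (triangles) around Fth1, Tfrc, Ftl1 and Flvcr1, in kb from the lower-coordinate end of the named gene, with bars cut 60 kb beyond either end and dotted lines at 50 kb. The filled triangles at Fth1, Tfrc and Ftl1 stand over the neighbouring genes Best1, Rab3il1, Tnk2 and Gys1, and the triangle of the Flvcr1 row stands next to the end of Vash2.

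Of the genes of iron and haem efflux, only Flvcr1 had a peak within 50 kb. Flvcr1 encodes a membrane transporter described as a haem exporter of red cell precursors, and lies on chromosome 1 at 191005832 to 191026190. Its peak, at chr1:190979283-190979682, was 26.4 kb beyond its downstream end and 46.7 kb from its annotated start. It was 0.114 kb from the higher-coordinate end of Vash2, the gene of vasohibin 2, centred 186 bp before an annotated start of Vash2. The bases of the peak before that start hold the motif 225 bp from it.
Vash2, chr1:190979297-190979546, minus strand: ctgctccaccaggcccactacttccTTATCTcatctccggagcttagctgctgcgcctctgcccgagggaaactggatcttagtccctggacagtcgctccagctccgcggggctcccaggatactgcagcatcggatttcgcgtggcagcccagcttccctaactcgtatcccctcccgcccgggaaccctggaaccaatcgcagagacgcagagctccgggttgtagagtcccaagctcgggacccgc

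Slc40a1 encodes ferroportin, the iron exporter of the plasma membrane, and lies on chromosome 1 at 45908070 to 45926532. Its nearest peak was 146 kb away, a distance at or within which 51.7% of protein-coding genes had a peak, and no other protein-coding gene lay within 50 kb of it. Hmox1 encodes haem oxygenase 1, which opens the haem ring and frees its iron, and lies on chromosome 8 at 75093618 to 75100593. Its nearest peak, at chr8:74994462-74994861, was 99.0 kb below the gene, inside Hmgxb4. A gene without a peak is one where none was called at the unstated threshold of the list.

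Ireb2 encodes iron regulatory protein 2, which binds the iron-responsive stem-loops in the messages for ferritin and the transferrin receptor. It lies on chromosome 9 at 54862658 to 54912534. Its 1 peak, at chr9:54863516-54863915, lay at an annotated promoter of the gene: the midpoint was 40 bp before the annotated start at 54863755 and 1.06 kb from the lower-coordinate end of the gene. Ireb2 was the only protein-coding gene within 50 kb of this peak. The bases of the peak before the start are shown because they are the promoter sequence under the peak. They hold none of the motifs, and 64.9% of them are G or C.
Ireb2, chr9:54863516-54863754, plus strand: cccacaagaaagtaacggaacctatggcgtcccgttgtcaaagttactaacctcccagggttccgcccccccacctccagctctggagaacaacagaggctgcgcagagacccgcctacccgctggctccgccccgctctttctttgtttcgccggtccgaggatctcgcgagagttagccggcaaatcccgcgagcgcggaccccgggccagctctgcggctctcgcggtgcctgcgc
These letters are 239 of the 400 bp of the peak, and no match in them says nothing of the rest.

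Promoter windows, from 250 bp before to 50 bp after an annotated start, were held in the RefSeq table for 7 of the 10 genes, as 14 windows. The window of Ireb2 was the 1 of 14 that overlapped a peak, against 1.65% of all 32851 windows. A motif was present in 3 of the 14 windows (21.4%), those of the outermost Steap3 start, 1 Tfr2 start and the first Fth1 start, none of which overlapped a peak. Among all windows 29.8% held a motif. Among the 541 that overlapped a peak the share was 43.6%, against 29.5% of the others. Promoter windows for Slc11a2, Slc40a1 and Hmox1 were not used here.

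Taken by the peak and not by the gene, 9 of the 10 peaks lay inside a protein-coding gene (90%), against 58.8% of all 4133 nuclear peaks. Of these 9, 3 were inside the iron gene itself and 6 inside a neighbour. The 10 peaks were picked for lying in or within 50 kb of a protein-coding gene, and the 4133 were not. Part of the difference may therefore follow from the rule, and the shares in this paragraph are not like for like. The 10 also include a pair in Tnk2 and a pair in Rab3il1, with each peak counted separately. The iron gene was the nearest protein-coding gene for 3 of the 10 peaks, those in Tfr2, Slc11a2 and Ireb2. A peak midpoint within 1 kb of the outer end of a protein-coding gene was found once, at Vash2, against 20.2% of all nuclear peaks. The peaks in Ireb2 and at the second Rab3il1 site lay at annotated starts within those genes and were not counted here. No peak met the rule for more than 1 of the 10 genes. Which gene a peak acts on was not measured, and for the 7 peaks outside the iron genes the iron gene and its neighbours cannot be told apart.

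A wider list of 39 iron genes, chosen by role, was set beside these. A peak lay within 50 kb of 18 of the 39 genes (46.2%, 31.6 to 61.4%), against 32.0% of all protein-coding genes, which lies inside that interval. In the gene body a peak lay at 8 of the 39 (20.5%, 10.8 to 35.5%), against 9.34%. The 39 genes were longer, with a median of 26.5 kb against 17.2 kb over all protein-coding genes. The part that length plays in these shares was not tested. By role, the count within 50 kb was 6 of 6 for plasma transport and uptake, 1 of 4 for reductases and 3 of 6 for endosome traffic and release. It was 4 of 12 for regulators and storage, 1 of 3 for the oxidases that aid export, and 3 of 8 for haem transport and breakdown. Within 10 kb the counts were 2, 1, 3, 2, 1 and 2 in the same order, against 16.6% of all protein-coding genes. In plasma transport and uptake, the peaks of Trf, Ltf, Cd163 and Hfe were each nearer to another protein-coding gene.

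Ncoa4, the receptor that delivers ferritin to lysosomes so that its iron can be used, had the most peaks of the wider list, 4. Of these, 2 lay in the gene and 2 lay 13.6 and 25.4 kb away on its upstream side, and 1 of those in the gene overlapped an annotated Ncoa4 promoter. Both upstream peaks were nearer to Msmb, 1 of them inside it and the other 7.55 kb from it. Exoc6, an exocyst subunit needed for transferrin recycling and mutated in the haemoglobin-deficit mouse, had 3 peaks, of which 1 was intragenic and 2 stood 15.2 and 42.7 kb upstream. Snx3, a sorting nexin that returns the transferrin receptor to the surface, had 2, of which 1 was intragenic and 1 stood 2.44 kb beyond its downstream end.

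Hfe, whose product binds transferrin receptor 1, had 3 peaks, at 17.0, 19.4 and 44.3 kb, each nearer to a histone gene than to Hfe. Abcg2, a transporter that exports porphyrins, held 2 within its body, 1.62 kb apart. The other genes that the naming rule took had 1 peak each. It was inside the gene for Hephl1, Lrp1, Slc39a8 and Slc48a1 (the endosomal haem transporter HRG1). It was at 0.198 kb for Pcbp2 (an iron chaperone), 0.791 kb for Steap1 and 0.844 kb for Picalm (an adaptor of clathrin-coated pits). The Steap1 peak lay inside another protein-coding gene, Gm46900.

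**Figure D4:**
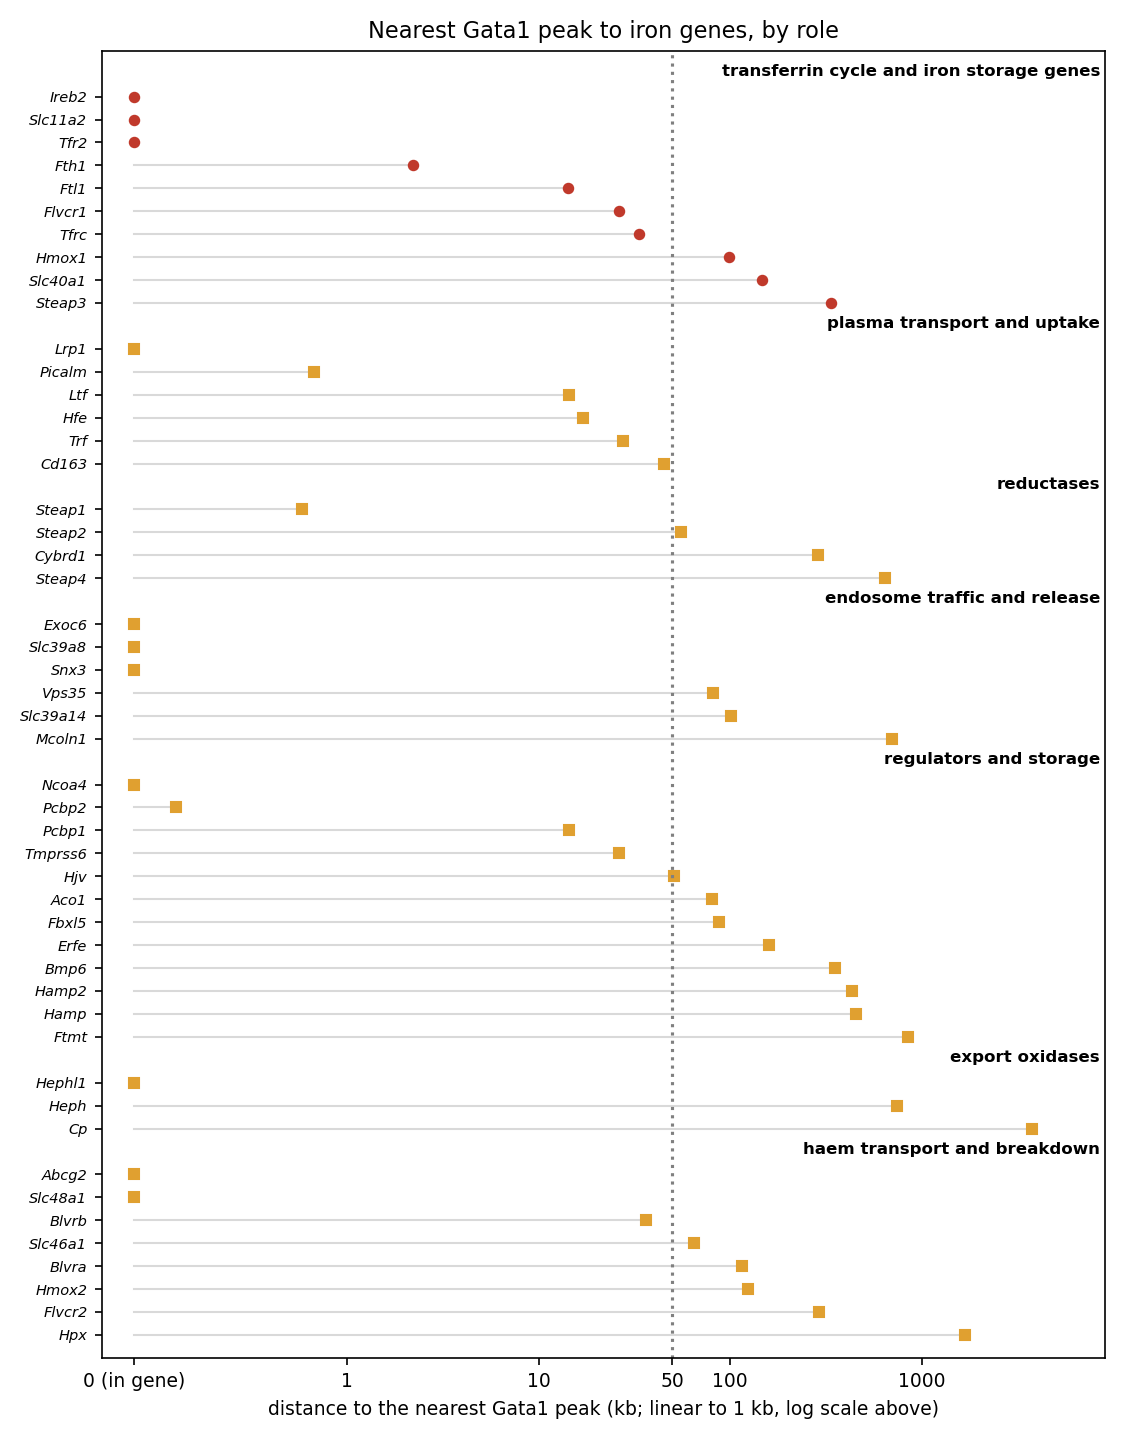
Distance from each gene to its nearest Gata1 peak in kb (horizontal axis, linear to 1 kb and logarithmic above), with circles for the 10 transferrin cycle and iron storage genes and squares for 39 other iron genes grouped by role. Points at 0 have a peak midpoint inside the gene and the dotted line marks 50 kb; Steap3 stands at 334 kb, the farthest of the 10.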

How the data were processed

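The submitters' processing notes name Bowtie2 2.0.6, MACS2 2.0.10 and the build mm10. How these were set, which threshold was applied, whether the control was used and how every interval came to be 400 bp wide is not given in the sources used here. The authors' deposited peak file used here holds positions only. No file of the control library was analysed here.

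Positions are printed 1-based, and a midpoint is the centre of the interval. Genes came from a RefSeq table of GRCm38.p6. Entries with no chromosome, or starting below 3 Mb except on the Y and the mitochondrial genome, were left out (357), which left 49640 genes. The table has no exons. Strand, starts and sequences came from the RefSeq promoter table of the same build, which held 80.3% of the protein-coding genes. All 10 genes and all 39 of the wider list matched by symbol.

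The members, the lists and the naming rule were chosen with earlier results of these data known. The rule named the 10 genes, the genes nearest to or holding their peaks, and the 12 wider genes with the most peaks within 50 kb (ties by distance). Other genes were named after their values were seen. No significance test was made, since 1 unreplicated list allows none between samples. The windows, the overlap rule and the assignment to the nearest gene were varied. Window counts were checked on simulated data. Python 3.11.15, numpy 2.4.6, pandas 2.3.3, scipy 1.17.1 and matplotlib 3.10.9 were used.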

Additional observations from a re-analysis of the deposited data

How the results depend on the processing

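The counts depended on the window. Genes of the 10 with a peak numbered 4 with 10 kb, 3 with 1 kb, 3 in the gene body, 3 when a peak counted for the nearest protein-coding gene only and 4 when peaks inside another protein-coding gene were left out (Tfr2, Slc11a2, Ireb2 and Flvcr1), against 7 with 50 kb, 5 with 25 kb and 8 with 100 kb. Their distinct peaks numbered 10 with 50 kb, and 4, 5, 3, 18, 3, 3 and 4 with 10 kb, 25 kb, 1 kb, 100 kb, the gene body, the nearest gene only and peaks inside another gene left out. All protein-coding genes with a peak numbered 6973 with 50 kb, and 3611, 2456, 2036 and 3008 (13.8%) with 10 kb, 1 kb, the gene body and the nearest gene only. With peaks inside another protein-coding gene left out, a background count added after seeing the data, the number was 4568 (21.0%). The number was 12194 over all 49640 annotated genes (24.6%). With the nearest gene only, 3 of the 10 genes (30%, 10.8 to 60.3%) stood against 13.8%. With peaks inside another gene left out, 4 of the 10 (40%, 16.8 to 68.7%) stood against 21.0%. Both of these background shares lie inside the intervals. The wider list had 18 with 50 kb, and 11, 11, 8 and 11 with 10 kb, 1 kb, the gene body and the nearest gene only. It had 13 with peaks inside another protein-coding gene left out. Any overlap in place of the midpoint left the 10 genes at 7, their peaks at 10 and the wider list at 18, and counting peaks within 1 kb once gave 9 peaks. These changes follow from the size of the window and from which peaks may count. No paired analysis was possible because there is 1 ChIP library and no test. A stricter peak threshold could not be tried without scores, and depth could not be examined.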

Other observations

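Other genes of iron sensing and of hepcidin control, the hormone axis that sets iron release in the whole body, lay at varied distances from Gata1 peaks, beside a median of 135 kb over all protein-coding genes. Aco1, which encodes iron regulatory protein 1, had its nearest peak at 80.7 kb. Fbxl5, which encodes the iron sensor that marks iron regulatory protein 2 for destruction, had its nearest at 87.3 kb. Of all protein-coding genes, 40.1% and 41.5% had a peak as near as these. In the hepcidin axis, Tfr2 had a peak inside the gene and Hfe had its nearest at 17.0 kb. The nearest was at 26.4 kb for Tmprss6, a protease that lowers hepcidin, and at 51.1 kb for Hjv, a BMP co-receptor. The shares of protein-coding genes with a peak as near were 20.0% for Hfe, 24.0% for Tmprss6 and 32.3% for Hjv. The Tmprss6 peak lay inside another protein-coding gene, Mpst. Erfe, the hormone that red cell precursors send to the liver, had its nearest at 159 kb, and 53.4% of protein-coding genes had a peak as near as that. The distance was 351 kb for Bmp6, 432 kb for Hamp2 and 452 kb for Hamp, the hepcidin gene. For these the shares as near were 69.7%, 73.6% and 74.5%. Apart from Tfr2 and Hfe, these genes were picked with their distances already known.

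For the 7 genes with a known strand, every peak outside the gene but within 50 kb lay beyond the downstream end, 7 of 7 peaks at 4 genes (Tfrc, Fth1, Ftl1 and Flvcr1). In the wider list 6 of 15 such peaks did, and over the 17492 protein-coding genes with a strand 3172 of 6341 gene and peak pairs did. The pattern was noticed after the positions were seen. The 7 peaks include a pair in Tnk2 and a pair in Rab3il1, and between 50 and 100 kb Tfrc, Tfr2, Fth1, Ftl1 and Ireb2 had peaks on the upstream side.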
